A study of Mus musculus with 10 samples.

Results

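The extracellular matrix genes described here are 35 genes for collagens, laminins, nidogens, proteoglycans, elastic fibre proteins and other matrix glycoproteins, taken by their mouse gene symbols from the 35275 Ensembl gene IDs of the count data. They were sorted by structure into 12 genes of fibrils and interstitial matrix, 15 genes of the basement membrane, 3 genes of elastic fibres and 5 other matrix proteins. All 35 symbols were found, and all 35 passed the filter on low counts. RNA-seq libraries had been made from sections of intestine, labelled as proximal, of 5 wild-type (WT) and 5 knockout (KO) mice of 8 to 10 weeks, with 1 library per mouse. According to the paper, *Zip14* (*Slc39a14*), a transporter of zinc and other metals, was deleted in every tissue of the KO mice. WT controls had the same strain background, both genotypes came from heterozygous parents, and both sexes were used. The series title speaks of an enterocyte deletion and the sample labels of KO alone, so that the kind of deletion is uncertain. Sex and litter of single mice were not given.

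The connective tissue of the gut wall rests on fibrils of type I, III and V collagen, which are made mainly by fibroblasts and smooth muscle and are bound by small proteoglycans. Under the epithelium, and around vessels, nerves and muscle cells, the basement membrane is a sheet in which a network of laminins is linked by nidogens and perlecan to a network of type IV collagen. Elastic fibres have a core of elastin on a scaffold of fibrillin microfibrils, and fibulins join the parts.

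The counts summed to between 16729787 and 20819678 per library in WT mice and to between 17118742 and 19414828 in KO mice, with between 31 (*Lama1*) and 12450 (*Col3a1*) counts for a member in a library. Levels are given as CPM, counts scaled to the library total after TMM normalization, and changes as the log2 fold change of KO over WT. The adjusted p is that of edgeR's quasi-likelihood test over 15610 genes, called at 0.05. The deleted gene had 260.4 ± 62.5 CPM in WT and 102 ± 32.9 CPM in KO libraries (SD, n = 5 each), with 160.1 CPM in KO replicate 1 and 78.5 to 93.8 CPM in the other KO libraries. Markers of gut position went against the common label of proximal intestine. The summed level of 5 ileum markers was 198.8 to 237 CPM in WT and 3245 to 10499 CPM in KO libraries, and that of 6 markers of the proximal gut was 4771 to 11921 CPM in WT and 24.8 to 603 CPM in KO libraries. Since all 5 KO libraries carried the ileum markers and no WT library did to that degree, genotype and position along the gut cannot be told apart in any KO to WT difference below. The summed level of 10 smooth muscle markers was 1629 to 2674 CPM in WT and 3600 to 10596 CPM in KO libraries, 9 of the 10 being higher. KO replicate 4 had the highest value. For 10 fibroblast markers the sums were 609 to 796 CPM and 1055 to 1295 CPM, with 7 of 9 tested higher. *Pdgfra*, a defining receptor of these cells, had a log2 fold change of -0.17 (edgeR adjusted p = 0.5305). In bulk tissue, fewer cells of a type and less RNA per cell cannot be told apart.

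Of the 35 matrix genes, 5 were higher in KO mice (*Dcn*, *Lum*, *Postn*, *Lamb2* and *Eln*), 6 were lower (*Fbln1*, *Col14a1*, *Nid2*, *Lama5*, *Col18a1* and *Lama1*), and 24 did not pass the threshold. That is 31.4% of the members, where 29.9% of all 15610 genes tested were called, so that the share called was near the background. By direction, 14.3% of the members were higher against 16% of all genes, and 17.1% were lower against 13.9% of all genes. The median log2 fold change was -0.11 over the members and 0.03 over all genes tested. There was no overlap between KO and WT libraries for 3 higher members, *Dcn*, *Lum* and *Postn*, where 10.2% of all genes had every KO above every WT library. The same held for 5 lower members, *Fbln1*, *Nid2*, *Lama5*, *Col18a1* and *Lama1*, where 10.8% of all genes had every KO below every WT library. With a log2 fold change beyond 1 asked for as well, 2 members were higher (*Lum*, *Postn*) and 2 were lower (*Fbln1*, *Col14a1*), against 11.1% of all genes in either direction.

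**Figure D1:**
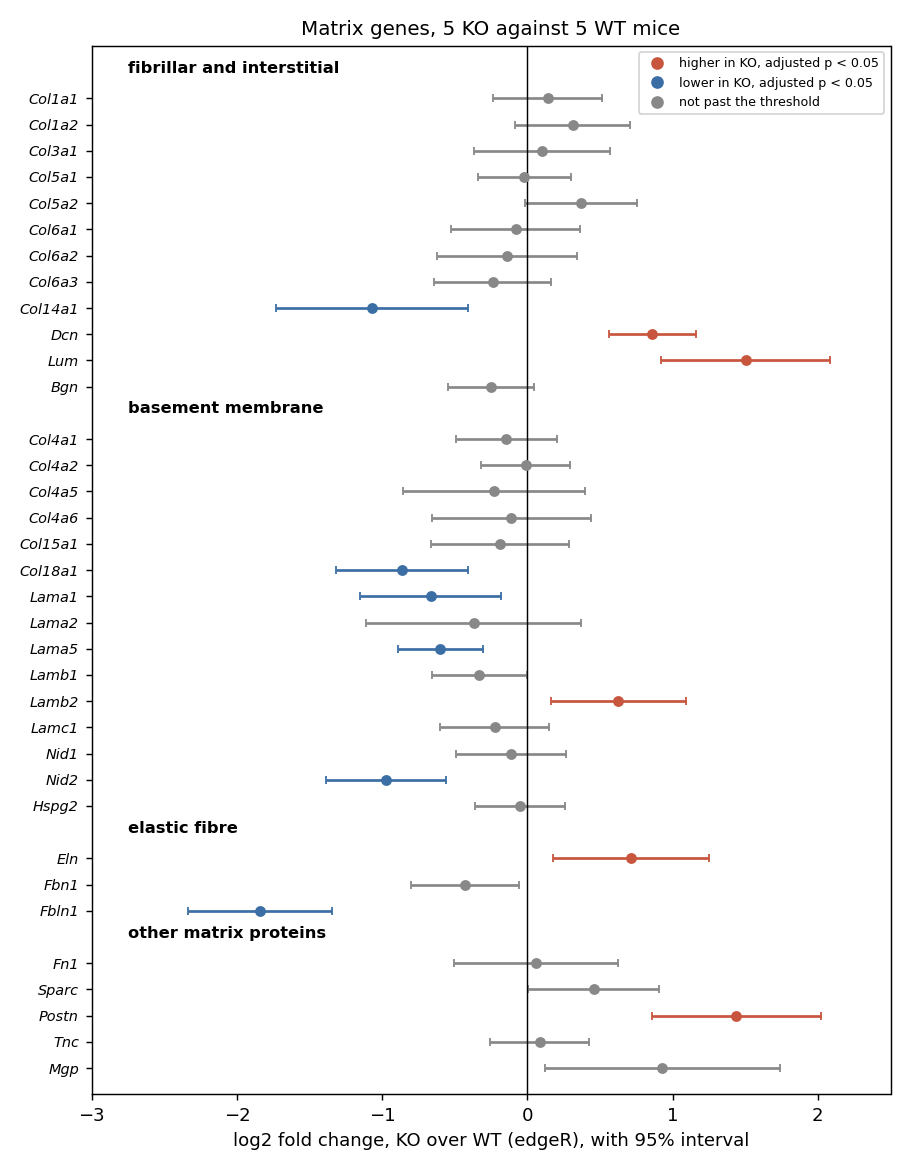
Log2 fold change of KO over WT for each matrix gene (x axis, edgeR) with its 95% interval (bars), grouped by structure (y axis), from 5 libraries per group. The 5 higher genes (red) and 6 lower genes (blue) lie on both sides of genes not past the threshold (grey), and *Fbln1* at -1.84 and *Lum* at 1.50 are the ends of the range.

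The sequence before the start site is shown for 4 of the called genes, so that the base composition of their promoters can be compared. The table (GRCm38.p6) held 24 of the 35 members, the window nearest to the GENCODE gene start is shown where it gave more than 1, and the bases printed hold no GENCODE exon. Capitals mark matches to the GC box (GGGCGG), the CCAAT box (CCAAT), the TATA box (TATAAA) and the AP-1 motif (TGANTCA), each read on both strands.
Fbln1, chr15:85205699-85205948, plus strand: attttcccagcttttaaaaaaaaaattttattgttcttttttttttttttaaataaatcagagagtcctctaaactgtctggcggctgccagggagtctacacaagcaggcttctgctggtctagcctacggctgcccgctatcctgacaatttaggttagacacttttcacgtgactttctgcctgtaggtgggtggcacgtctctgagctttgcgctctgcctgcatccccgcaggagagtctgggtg
Lama5, chr2:180225860-180226109, minus strand: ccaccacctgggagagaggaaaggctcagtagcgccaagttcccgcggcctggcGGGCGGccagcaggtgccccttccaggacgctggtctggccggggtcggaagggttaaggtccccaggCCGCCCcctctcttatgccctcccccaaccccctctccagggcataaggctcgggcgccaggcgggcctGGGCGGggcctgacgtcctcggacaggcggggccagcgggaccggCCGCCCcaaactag
Col18a1, chr10:77166549-77166780, minus strand: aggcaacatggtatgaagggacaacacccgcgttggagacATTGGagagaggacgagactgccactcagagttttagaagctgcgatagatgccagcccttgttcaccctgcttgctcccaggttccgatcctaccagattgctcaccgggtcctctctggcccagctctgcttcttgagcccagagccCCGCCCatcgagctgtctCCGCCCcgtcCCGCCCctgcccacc
Postn, chr3:54360857-54361106, plus strand: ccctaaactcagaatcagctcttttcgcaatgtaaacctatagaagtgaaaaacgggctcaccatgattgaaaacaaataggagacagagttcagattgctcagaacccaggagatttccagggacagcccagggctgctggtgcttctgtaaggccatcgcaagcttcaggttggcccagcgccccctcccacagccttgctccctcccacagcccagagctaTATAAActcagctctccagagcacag
The 250 bases before the start had a G and C content of 46.4% for *Fbln1*, 72.4% for *Lama5*, 62% for *Col18a1* and 52% for *Postn*, against a median of 52.4% over the promoters of the table. The stretch of *Lama5* held 4 GC boxes, that of *Col18a1* 3 GC boxes and 1 CCAAT box, and that of *Postn* 1 TATA box, while that of *Fbln1* held none of the 4 motifs. A second window of *Fbln1*, whose start site lies 59 bases further on, had a G and C content of 62.4% and 1 GC box. The other windows of *Col18a1* (57.6%) and *Postn* (40.4%) held none of the motifs. *Lamb2*, also called and in the table, is not shown because only 124 bases of its window hold no exon, and its 250 bases had 43.6% G and C and no motif. Among 32851 windows of 250 bases, 32.7% held a GC box, 33.8% a CCAAT box, 12.4% a TATA box and 6.75% an AP-1 motif. A match describes letters and not a bound site.

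Among the 12 genes of fibrils and interstitial matrix, the small proteoglycans *Dcn* and *Lum* rose and *Col14a1* fell in KO mice, and no chain of the main fibrils passed the threshold. In all, 2 were higher and 1 was lower, 25% against 29.9% of all genes tested, and the median log2 fold change was 0.04. *Col1a1* and *Col1a2* encode the chains of type I collagen, the main fibril protein of the gut wall. *Col1a1* had 145, 116, 117, 152 and 137 CPM in WT replicates 1 to 5 and 153, 202, 133, 151 and 97.7 CPM in KO replicates 1 to 5. Its log2 fold change was 0.14 (95% interval -0.23 to 0.51, edgeR adjusted p = 0.555). *Col1a2* had 135 to 171 CPM in WT and 114 to 260.1 CPM in KO libraries (log2 fold change 0.31, interval -0.08 to 0.71, edgeR adjusted p = 0.206), with 4 of 5 KO libraries above every WT library. KO replicate 2 was the highest and KO replicate 5 the lowest library for both chains. Without KO replicate 5 *Col1a2* was past the threshold (0.45, edgeR adjusted p = 0.0185). *Col3a1*, the chain of type III collagen and the fibril gene with the most counts, had 372 to 523 CPM in WT and 288 to 653 CPM in KO libraries (log2 fold change 0.10, interval -0.36 to 0.57, edgeR adjusted p = 0.738). *Col5a1* and *Col5a2*, chains of the type V collagen that starts fibrils, had log2 fold changes of -0.02 and 0.37 (edgeR adjusted p = 0.925 and 0.128). Without KO replicate 5 *Col5a2* was at 0.50 and past the threshold (edgeR adjusted p = 0.0168). The 3 chains of type VI collagen, which forms beaded filaments around cells, were at -0.08 (*Col6a1*), -0.14 (*Col6a2*) and -0.24 (*Col6a3*), and none passed the threshold of the edgeR test (adjusted p of 0.788, 0.648 and 0.337). These intervals span changes of both signs, so that a difference smaller than the spread between KO mice was not detectable.

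Decorin and lumican are small leucine-rich proteoglycans that sit on collagen fibrils and govern how they grow and space. *Dcn* (ENSMUSG00000019929, chr10:97479609-97518143, plus strand) had 93.4, 76.4, 96.1, 111 and 119 CPM in WT replicates 1 to 5 and 172, 199, 157, 213 and 159.5 CPM in KO replicates 1 to 5. All KO libraries were above all WT libraries, and the mean rose from 99.3 ± 16.7 to 180.3 ± 24.8 CPM (SD, n = 5 each). The log2 fold change was 0.86 (SE 0.14, edgeR adjusted p = 0.0016). *Lum* (ENSMUSG00000036446, chr10:97565128-97572703, plus strand), which lies next to *Dcn*, had 10.4, 9.19, 11.3, 21.2 and 20.1 CPM in WT and 34.2, 37.9, 46.3, 55.8 and 30.5 CPM in KO replicates 1 to 5. The groups did not overlap, WT replicates 4 and 5 were the highest of their group, and the log2 fold change was 1.50 (SE 0.27, edgeR adjusted p = 0.00273). *Bgn*, the related biglycan, was not past the threshold, with 119.6 to 137 CPM in WT and 77.0 to 126 CPM in KO libraries (log2 fold change -0.25, edgeR adjusted p = 0.178). Of the 9 fibroblast markers tested, 7 were higher in KO mice like *Dcn* and *Lum*, while others, *Pdgfra* among them, were not called. The sum of the fibroblast markers was highest in KO replicate 1 (1295 CPM) and was 1156 CPM in KO replicate 4. *Dcn* and *Lum* were highest in KO replicate 4. The part of fibroblasts in the change was not tested.

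Type XIV collagen does not form fibrils itself but lies on their surface. *Col14a1* (ENSMUSG00000022371, chr15:55307750-55520803, plus strand) had 67.1, 74.3, 69.6, 63.9 and 64.0 CPM in WT and 64.0, 31.4, 15.2, 25.2 and 25.7 CPM in KO replicates 1 to 5. KO replicate 1 was within the WT range, and the other 4 KO libraries were below every WT library. The mean fell from 67.7 ± 4.34 to 32.3 ± 18.7 CPM (SD, n = 5 each). The log2 fold change was -1.07 (SE 0.30, edgeR adjusted p = 0.0224). Without WT replicate 2 the change was -1.04 and not past the threshold (edgeR adjusted p = 0.0512). KO replicate 1 was also the KO library with the highest level of the deleted gene and the highest sum of proximal markers, 603 CPM against 24.8 to 492 CPM in the other KO libraries.

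**Figure D2:**
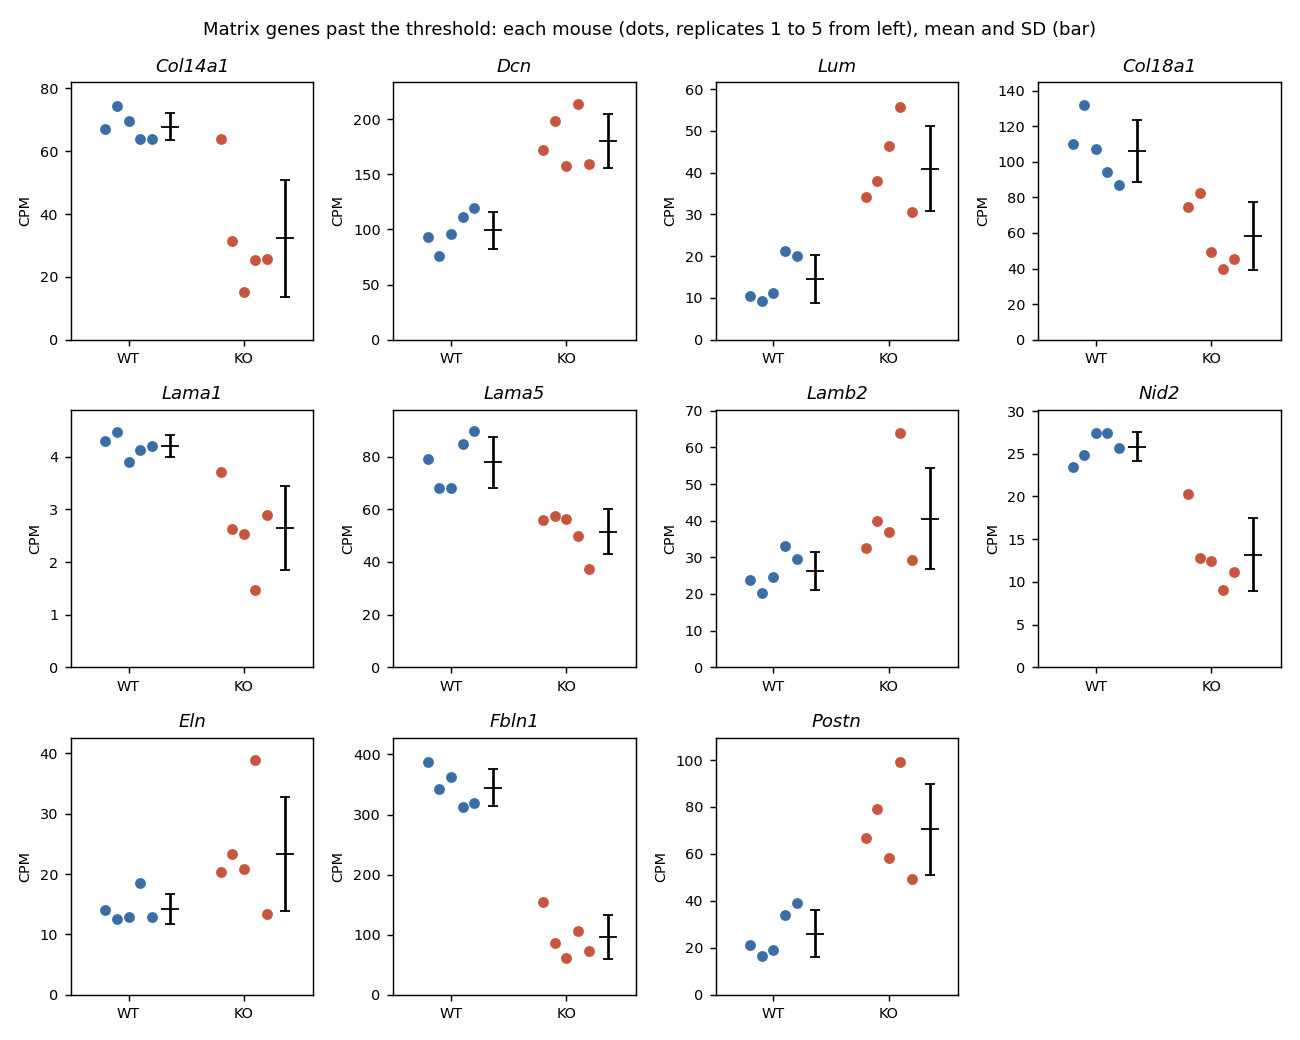
CPM (y axis) of the 11 matrix genes past the threshold in each mouse (dots, WT blue and KO red, replicates 1 to 5 from left to right), with the group mean and SD as a bar. The KO dots of *Col14a1*, *Lamb2* and *Eln* reach into the WT range, and those of the other 8 genes do not.

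Of the 15 basement membrane genes, 4 were lower in KO mice (*Nid2*, *Col18a1*, *Lama5* and *Lama1*) and 1 was higher (*Lamb2*), with a median log2 fold change of -0.23, while the type IV collagen chains did not pass the threshold. That is 33.3% of these genes against 29.9% of all genes tested, with 26.7% lower against 13.9% and 6.67% higher against 16%, and no test of these shares was made. *Lama5* encodes the alpha chain of the main laminins under the adult gut epithelium. *Lama5* (ENSMUSG00000015647, chr2:180176373-180225859, minus strand) had 79.1, 68.1, 68.1, 84.7 and 89.6 CPM in WT and 56.0, 57.6, 56.4, 50.0 and 37.1 CPM in KO replicates 1 to 5. The groups did not overlap, KO replicate 5 was the lowest, and the log2 fold change was -0.60 (SE 0.13, edgeR adjusted p = 0.00776). *Lama1* (ENSMUSG00000032796, chr17:67697259-67822647, plus strand), the alpha chain of the first laminin of the embryo, had 4.31, 4.47, 3.91, 4.12 and 4.20 CPM in WT and 3.72, 2.62, 2.54, 1.48 and 2.89 CPM in KO replicates 1 to 5. It rested on 31 to 83 counts per library and had no overlap between the groups, with a log2 fold change of -0.67 (SE 0.22, edgeR adjusted p = 0.0414). When single mice were left out, the change of *Lama1* stayed between -0.82 and -0.51 and passed the threshold in 2 of 10 cases, those without KO replicate 1 or 4. Scaled by library size only it was -0.55 (edgeR adjusted p = 0.0612). *Lama2*, the alpha chain of muscle and nerve basement membranes, had 14.5 to 22.7 CPM in WT and 6.72 to 24.2 CPM in KO libraries (log2 fold change -0.37, edgeR adjusted p = 0.425). KO replicates 1 and 2 had 24.2 and 19.8 CPM, and the other 3 KO libraries were below every WT library.

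Of the beta chains of laminin, *Lamb2* was higher and *Lamb1* was not past the threshold. *Lamb2* (ENSMUSG00000052911, chr9:108479736-108490530, plus strand), the beta chain of mature muscle, vessel and nerve basement membranes, had 23.8, 20.2, 24.7, 33.2 and 29.5 CPM in WT and 32.6, 39.9, 37.0, 64.0 and 29.3 CPM in KO replicates 1 to 5. The groups overlapped through KO replicates 1 and 5, KO replicate 4 was the highest, and the log2 fold change was 0.63 (SE 0.21, edgeR adjusted p = 0.0454). Without KO replicate 4 the change of *Lamb2* was 0.40 (edgeR adjusted p = 0.0763), and it passed the threshold in 3 of 10 cases with single mice left out, those without WT replicate 4 or KO replicate 1 or 5. *Lamb1*, the more widespread beta chain, had 93.5 to 113 CPM in WT and 65.4 to 106 CPM in KO libraries (log2 fold change -0.33, edgeR adjusted p = 0.113), and *Lamc1*, the gamma chain that most laminins share, was at -0.23 (edgeR adjusted p = 0.326). *Lamb1* passed the threshold without KO replicate 1 (-0.43, edgeR adjusted p = 0.0398) or KO replicate 2 (-0.44, adjusted p = 0.0464).

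Nidogens bridge laminin and type IV collagen. *Nid2* (ENSMUSG00000021806, chr14:19751265-19811787, plus strand) had 23.5, 24.9, 27.4, 27.5 and 25.7 CPM in WT and 20.3, 12.9, 12.4, 9.01 and 11.2 CPM in KO replicates 1 to 5. All KO libraries were below all WT libraries, KO replicate 1 being nearest to them, and the mean fell from 25.8 ± 1.70 to 13.2 ± 4.28 CPM (SD, n = 5 each). The log2 fold change was -0.97 (SE 0.19, edgeR adjusted p = 0.00402). Of the exon bases of *Nid2*, 437 (8.45%) are also exons of *Rtraf* on the other strand, which had 78.3 CPM in WT and 90.2 CPM in KO mice (log2 fold change 0.20, edgeR adjusted p = 0.266). How reads on such bases were assigned is not known here. *Nid1* had 61.7 to 78.6 CPM in WT and 38.8 to 80.2 CPM in KO libraries (log2 fold change -0.11, edgeR adjusted p = 0.648). *Col18a1* encodes a basement membrane collagen with sugar chains, whose end can be released as endostatin. *Col18a1* (ENSMUSG00000001435, chr10:77052178-77166548, minus strand) had 110.2, 132, 107, 94.5 and 86.8 CPM in WT and 74.7, 82.8, 49.1, 39.8 and 45.2 CPM in KO replicates 1 to 5. The groups did not overlap, although KO replicate 2 came close to WT replicate 5, and the log2 fold change was -0.86 (SE 0.21, edgeR adjusted p = 0.0112).

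The other basement membrane genes did not pass the threshold. *Col4a1* and *Col4a2*, which encode the chains of the common type IV collagen, were at log2 fold changes of -0.14 (interval -0.49 to 0.21) and -0.01 (interval -0.32 to 0.29), from means of 199.5 and 138 CPM in WT mice (edgeR adjusted p = 0.513 and 0.957). *Col4a5* and *Col4a6*, chains of the type IV collagen around smooth muscle, were at -0.23 and -0.11 (edgeR adjusted p = 0.565 and 0.761), with the lowest levels in KO replicates 4 and 5. *Col15a1*, the relative of *Col18a1* in muscle and vessel basement membranes, was at -0.19 (edgeR adjusted p = 0.535). *Hspg2*, which encodes perlecan, was at -0.05 (interval -0.36 to 0.26, edgeR adjusted p = 0.812). The 10 endothelial markers had summed levels of 185.9 to 206 CPM in WT and 134 to 200.2 CPM in KO libraries, with 3 lower (*Kdr* at -0.71 and *Flt1* at -0.85 among them), 1 higher (*Cldn5* at 0.89) and 6 not past the threshold by edgeR. Among those 6 was *Pecam1*, the most abundant of the list, at 0.11 (edgeR adjusted p = 0.577). The 10 epithelial markers summed to 11888 to 13767 CPM in WT and 14031 to 20211 CPM in KO libraries, with 7 higher by edgeR and no overlap of the sums. The part of these cell types in the basement membrane genes was not tested.

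Of the 3 elastic fibre genes *Fbln1* was lower, *Eln* was higher and *Fbn1* was not past the threshold, 66.7% called against 29.9% of all genes tested. Fibulin-1 binds basement membranes and elastic fibres. *Fbln1* (ENSMUSG00000006369, chr15:85205949-85286535, plus strand) had 388, 342, 362, 313 and 319 CPM in WT and 155, 85.6, 61.2, 107 and 72.2 CPM in KO replicates 1 to 5. The highest KO library, KO replicate 1, was below the lowest WT library, and the mean fell from 344.8 ± 30.8 to 96.2 ± 37.2 CPM (SD, n = 5 each). The log2 fold change was -1.84 (SE 0.23, edgeR adjusted p = 0.000455), the lowest of the 35 genes. *Eln* (ENSMUSG00000029675, chr5:134702593-134747323, minus strand), which encodes elastin, had 14.1, 12.6, 12.9, 18.6 and 12.9 CPM in WT and 20.4, 23.3, 20.8, 38.8 and 13.3 CPM in KO replicates 1 to 5. KO replicate 5 was within the WT range, KO replicate 4 stood highest, and the log2 fold change was 0.71 (SE 0.24, edgeR adjusted p = 0.0469). Without KO replicate 4 the change of *Eln* was 0.45 (edgeR adjusted p = 0.0859), and it passed the threshold in 3 of 10 cases with single mice left out, those without WT replicate 4 or KO replicate 1 or 5. *Fbn1*, the fibrillin of the microfibril scaffold, had 59.7 to 68.9 CPM in WT and 33.8 to 67.4 CPM in KO libraries (log2 fold change -0.43, edgeR adjusted p = 0.0741), with 4 of 5 KO libraries below every WT library. Without KO replicate 1 *Fbn1* was past the threshold (-0.59, edgeR adjusted p = 0.00896), and 2442 of its exon bases (20.1%) are also exons of *Gm9913* on the other strand.

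Among the 5 other matrix proteins 1 was higher (20%, against 16% of all genes tested), and the median log2 fold change was 0.46. Periostin is a matrix protein of fibroblasts that binds collagen and integrins. *Postn* (ENSMUSG00000027750, chr3:54361109-54391037, plus strand) had 21.2, 16.5, 19.3, 33.8 and 39.3 CPM in WT and 66.7, 78.9, 58.5, 99.2 and 49.4 CPM in KO replicates 1 to 5. All KO libraries were above all WT libraries, WT replicates 4 and 5 were the highest of their group, and the log2 fold change was 1.44 (SE 0.26, edgeR adjusted p = 0.00332). *Mgp*, which encodes an inhibitor of calcification, had 11.6, 12.1, 13.7, 23.6 and 18.3 CPM in WT and 25.2, 16.0, 17.8, 63.6 and 28.3 CPM in KO replicates 1 to 5. KO replicate 4 stood far above the others, and the log2 fold change of 0.93 was not past the threshold of edgeR (adjusted p = 0.076) but was past that of DESeq2 (0.91, adjusted p = 0.0385). Without KO replicate 4 the edgeR value of *Mgp* was 0.46, and without KO replicate 2 it was 1.08 and past the threshold (adjusted p = 0.0464). *Sparc*, a collagen-binding protein, had 138 to 199 CPM in WT and 129.8 to 324 CPM in KO libraries (log2 fold change 0.46, edgeR adjusted p = 0.112). Without KO replicate 5 *Sparc* was past the threshold (0.60, edgeR adjusted p = 0.0227). *Fn1*, which encodes fibronectin, had 201 to 219.6 CPM in WT and 97.7 to 345 CPM in KO libraries (log2 fold change 0.06, interval -0.51 to 0.62, edgeR adjusted p = 0.882). *Tnc*, which encodes tenascin-C, was at 0.09 (interval -0.26 to 0.43, edgeR adjusted p = 0.701).

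The KO mice differed more among themselves than the WT mice. The median SD of log2 CPM over the members was 0.157 in WT and 0.433 in KO libraries, against 0.194 and 0.307 over all 15610 genes. The SD was larger in KO libraries for 32 of 35 members and for 12079 of all genes. KO replicate 2 was the highest KO library for 20 members and KO replicate 5 the lowest for 23. In WT mice replicate 4 was the highest for 16 members and replicate 2 the lowest for 21. KO replicate 4 was the highest KO library for all 5 genes called higher, and KO replicate 1 for 4 of the 6 genes called lower. The summed level of the 12 fibril and interstitial genes was 1512 to 1813 CPM in WT and 1204 to 2353 CPM in KO libraries, and that of the 15 basement membrane genes was 933 to 1114 CPM and 603 to 1069 CPM. The sum of the 3 elastic fibre genes, which in WT libraries is mostly *Fbln1*, was 396 to 470.5 CPM in WT and 119 to 243 CPM in KO libraries, with no overlap. Markers of other cell types in the wall moved as well, and their part in these sums was not tested. The sums were 229 to 321 CPM in WT and 359 to 830.3 CPM in KO libraries for 6 pericyte markers (3 higher by edgeR), 22.4 to 36.3 CPM and 43.2 to 139 CPM for 10 markers of enteric neurons and glia (10 higher), and 103 to 182 CPM and 85.1 to 721 CPM for 5 adipocyte markers (3 higher). Leukocyte markers summed to 976 to 1635 CPM and 440.3 to 1565 CPM (2 of 8 lower). The 6 mesothelial markers, at 6.76 to 26.1 CPM and 6.85 to 61.4 CPM, had 1 gene with an unadjusted p under 0.05 and none called by edgeR or DESeq2, and the 6 pancreatic acinar markers stayed at or below 4.55 CPM in WT and 14.4 CPM in KO libraries, with *Amy2a5* at 0 in all 10.

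**Figure D3:**
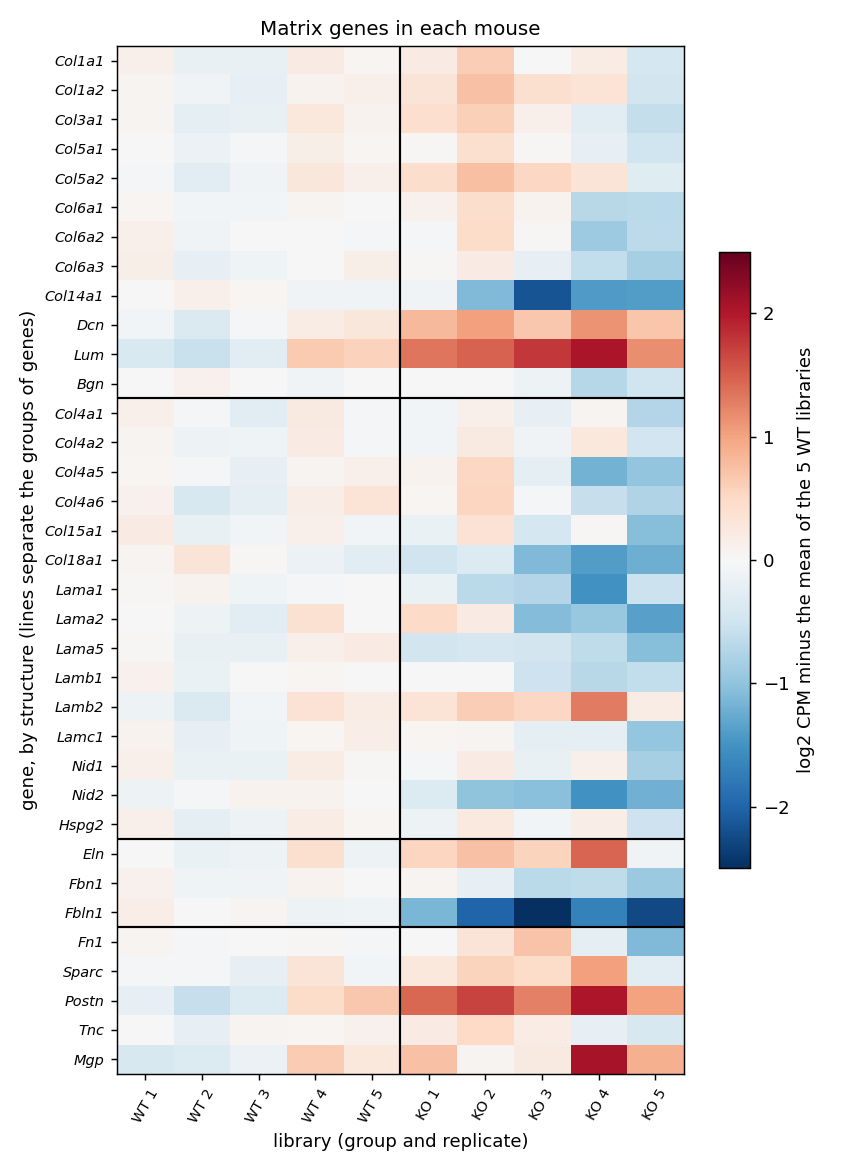
Log2 CPM of each matrix gene (y axis, by structure) in each library (x axis), minus the mean of the 5 WT libraries, as colour from blue (lower) to red (higher). *Dcn*, *Lum* and *Postn* are red and *Fbln1* and *Nid2* blue in all 5 KO libraries, while KO replicate 5 is bluish for most collagens and KO replicate 2 reddish.

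**Figure D4:**
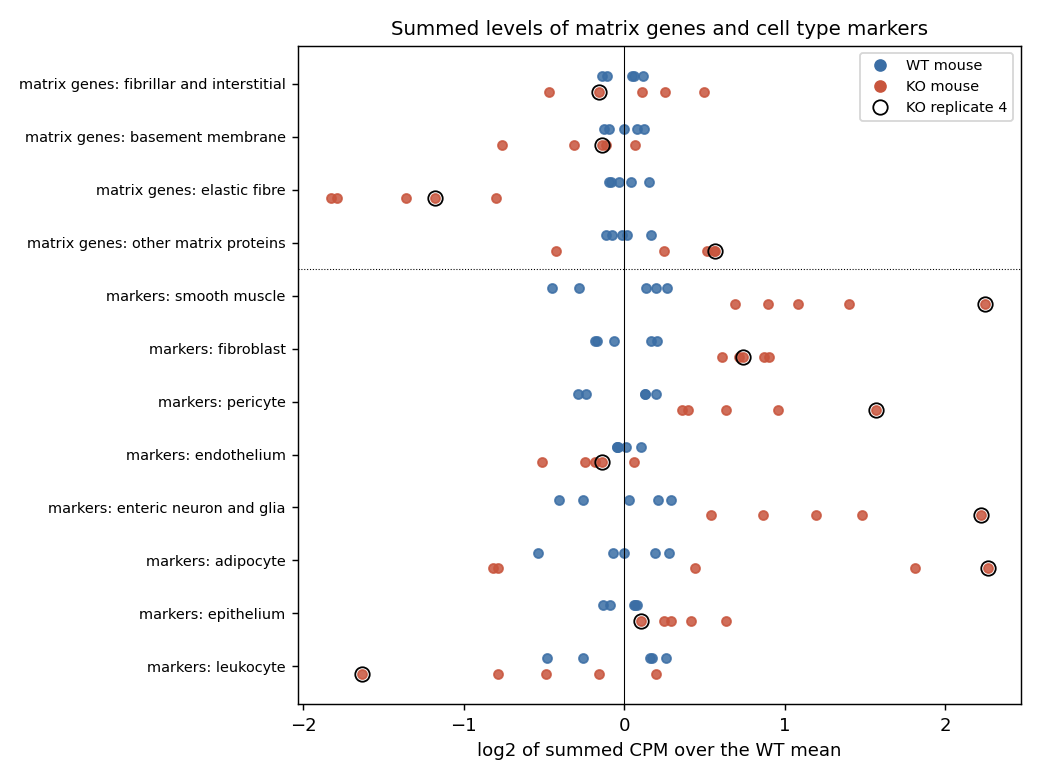
Summed CPM of the matrix gene groups and of cell type marker lists in each library, as log2 over the WT mean (x axis), with WT mice in blue, KO mice in red and KO replicate 4 ringed. The KO sums lie apart from the WT sums for elastic fibre genes (lower) and for epithelial, smooth muscle, fibroblast, pericyte and neuron and glia markers (higher).

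Levels of different genes were compared per length, as TPM over merged GENCODE exons. *Fbln1* had the highest TPM of the 35 genes in WT mice, 196 ± 15.6, and was the eighth in KO mice at 54.8 ± 16.3 (SD, n = 5 each). *Sparc* went from rank 4 in WT mice (105 TPM) to rank 1 in KO mice (148 TPM), while *Col6a1* (130.4 and 127 TPM) and *Col3a1* (111 and 122 TPM) kept ranks 2 and 3. The KO values of these 3 genes had SDs of 51.1, 48.7 and 43.2 TPM, so that their order in KO mice is within the spread. *Dcn* moved from rank 11 (42.3 TPM) to rank 4 (78.7 TPM) and *Lum* from rank 25 (14.7 TPM) to rank 13 (42.7 TPM). *Lama1* was the lowest in both groups, at 1.08 and 0.69 TPM. The ranks depended on the length used. With the longest transcript as the length, *Col3a1* (161 TPM) and *Sparc* (142 TPM) came before *Col6a1* (114 TPM) in WT mice, and in KO mice *Dcn* was at rank 6 and *Fbln1* at rank 11. *Fbln1* in WT mice and *Sparc* in KO mice still had rank 1, and *Lama1* the lowest.

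Paired genes were compared within a library by 15 log2 ratios of CPM + 0.5, in which the scaling of the library cancels except through the offset of 0.5. After adjustment over the 15, 4 ratios differed between the groups, each with no overlap. For each of them the exact permutation test (2-sided) gave p = 0.00794, the smallest it can give with 5 mice against 5, and an adjusted p of 0.0298. *Lamb2* to *Lamb1* rose from -2.0003 ± 0.23 in WT to -1.06 ± 0.63 in KO mice (SD, n = 5 each), a difference of 0.94 by the exact permutation test above, and KO replicate 4 was the highest at -0.03. *Eln* to *Fbn1* rose from -2.15 ± 0.17 to -1.06 ± 0.60, a difference of 1.09, again with KO replicate 4 as the highest at -0.09. *Nid2* to *Nid1* fell from -1.41 ± 0.19 to -2.26 ± 0.56, a difference of -0.85, with KO replicates 1 and 5 (-1.69 and -1.75) just below the lowest WT mouse (-1.66). *Col5a1* to *Col5a2* fell from 0.36 ± 0.11 to -0.02 ± 0.13, a difference of -0.39, although neither gene passed the threshold by itself. With any 1 WT mouse left out, no ratio passed after adjustment by the exact permutation test, which then has 126 splits. Still, 5 to 7 ratios had an unadjusted p under 0.05, and the adjusted p of the 4 lay between 0.0595 and 0.0952. The groups of these 4 ratios still did not overlap. The smallest p of that test was 0.0159, or 0.00794 without WT replicate 4. With steps this coarse, the loss cannot show whether the 4 ratios rest on single WT mice. With 1 KO mouse left out 4 ratios passed, or 6 without KO replicate 5.

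The other chain ratios did not pass after adjustment. *Col15a1* to *Col18a1* (0.65) and *Dcn* to *Lum* (-0.66) both had p = 0.0238 and adjusted p = 0.0595 by the exact permutation test. With an offset of 0.1 *Dcn* to *Lum* was at -0.69 and passed (exact permutation test, adjusted p = 0.0476). *Col1a1* to *Col1a2* was at -0.16 (exact p = 0.0476, adjusted p = 0.102), and *Col4a1* to *Col4a2* at -0.13 (exact p = 0.0873, adjusted p = 0.164). The ratio *Lama1* to *Lama5* differed by -0.02 (exact p = 0.984), and *Col6a1* to *Col6a2*, chains of the same molecule, by 0.07 (exact p = 0.222). *Col3a1* to *Col1a1* differed by -0.06, with 1.64 to 1.77 in WT and 1.24 to 1.93 in KO mice (exact p = 0.714).

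**Figure D5:**
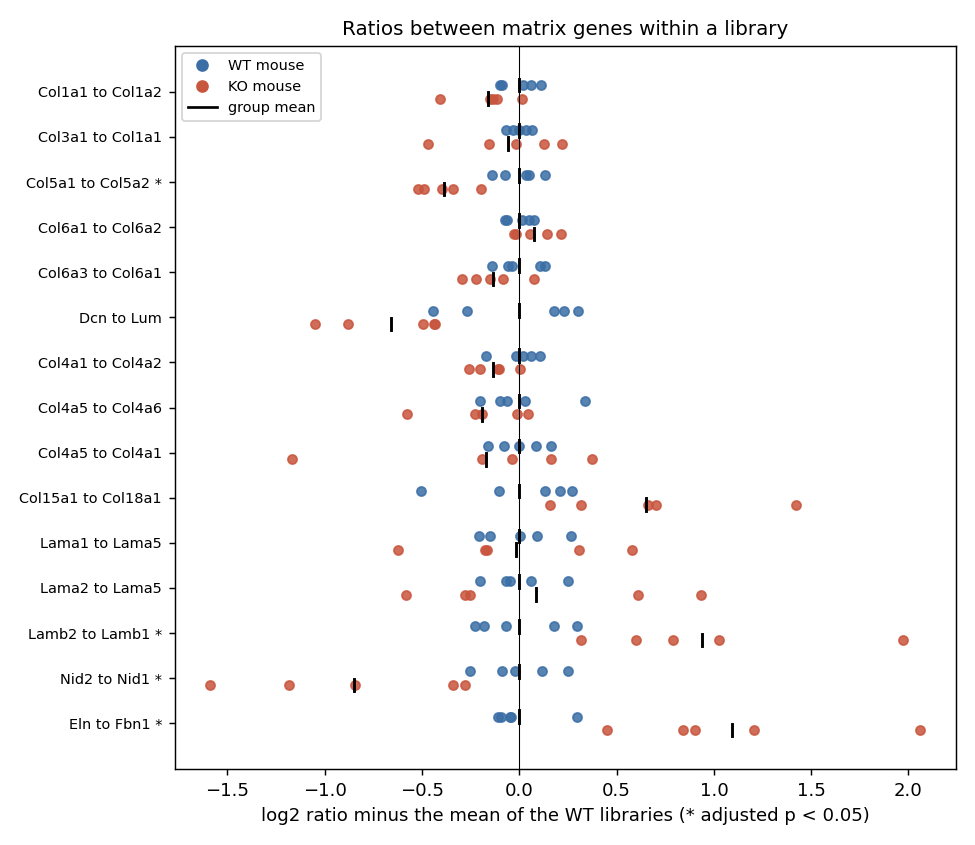
Log2 ratio of paired matrix genes within each library minus the WT mean (x axis) for 15 pairs (y axis), WT mice in blue, KO mice in red, group means as black bars and asterisks at adjusted p below 0.05. For the 4 marked pairs the red and blue dots do not overlap, and the dots of the other 11 pairs do.

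Genes that build, cut and bind the matrix were taken from 6 lists of 96 genes, and 28 were higher and 10 were lower in KO mice, 39.6% in all, where 29.9% of all genes tested were called, 16% as higher and 13.9% as lower. Of 20 genes of collagen assembly and cross-linking, 9 were higher and 2 were lower (median log2 fold change 0.53). *Plod2*, which hydroxylates the lysines used in cross-links, rose from 5.59 ± 0.62 to 14.96 ± 7.85 CPM (SD, n = 5 each; log2 fold change 1.42, edgeR adjusted p = 0.0067), and *P4ha2*, a catalytic subunit of prolyl 4-hydroxylase, rose by 1.07 (edgeR adjusted p = 0.0097). *P4hb*, the other subunit of that enzyme and a general folding enzyme of the endoplasmic reticulum, fell from 2571 ± 559 to 936 ± 237 CPM (log2 fold change -1.46, edgeR adjusted p = 0.0010). *Bmp1*, which trims procollagen, fell by 0.84. Of 13 genes of elastic fibre assembly, 3 were higher and 1 was lower, with *Mfap4* at 0.89, *Efemp2* at 0.71 and *Ltbp3* at 0.65. *Fbln5*, a fibulin that elastin assembly needs, fell by 0.70, and *Ltbp4*, the list's most abundant gene, was at -0.15 and not past the threshold.

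Of 12 basement membrane chains outside the 35, 3 were higher and 4 were lower (median log2 fold change -0.27). *Lamb3*, a chain of an epithelial laminin, rose by 1.76 (edgeR adjusted p = 0.0089), while *Col4a3* (-1.62), *Npnt*, which encodes nephronectin (-1.10), and *Agrn*, which encodes agrin (-0.65), fell, each with every KO below every WT library. Of 20 matrix receptors, 7 were higher and 2 were lower. *Itga5*, the integrin chain that binds fibronectin, rose by 1.15 and *Itga7*, a laminin receptor of muscle, by 1.34, and *Itgb1*, their common partner, rose by 0.34. *Itga8*, the receptor chain for nephronectin, fell by 1.22 and *Itga3*, an epithelial laminin receptor, fell by 0.47. Of 18 proteases and inhibitors, 5 were higher and 1 was lower, with *Timp4* at 3.88, *Mmp3* at 1.43, *Mmp19* at 0.72 and *Mmp10* at -1.43. The level of *Mmp3* was low, with means of 0.417 CPM in WT and 1.14 CPM in KO mice, and its groups overlapped. *Timp4* was at 0.233 ± 0.215 CPM in WT and 3.56 ± 4.09 CPM in KO mice, the highest value in KO replicate 4, while *Mmp7*, the most abundant, was at 0.89 and not past the threshold (edgeR adjusted p = 0.102). Of 13 genes of TGF-beta signalling, *Tgfbi* was higher (0.47, edgeR adjusted p = 0.014) and the other 12 were not past the threshold.

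Scaling changed few calls of the members, while a smooth muscle score as a covariate left none of them. With scaling by library size only, which shifted the median of all genes by 0.12, 5 members were higher and 5 were lower, against 23.1% higher and 10.2% lower over all genes. DESeq2 called 6 members higher and 6 lower, against 28.2% of all genes in either direction. With the mean log2 CPM of the smooth muscle markers as a covariate, edgeR called none of the 35 members (3 had an unadjusted p under 0.05) and 17 of all genes (0.109%). *Fbln1* was then at -1.67 (edgeR adjusted p = 0.139), *Lama5* at -0.65 and *Dcn* at 0.51, while *Lamb2* (-0.26) and *Eln* (-0.10) changed direction and *Col18a1* came to 0.00. The smooth muscle score, from 6.69 to 7.46 in WT and from 8.06 to 9.56 in KO libraries, did not overlap between the groups, so that in this model genotype and smooth muscle content cannot be told apart.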

How the data were processed

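RNA was taken from intestine sections of 5 WT and 5 KO mice, and libraries were made with a SMARTer mRNA-Seq kit. The authors deposited whole-number counts of reads per Ensembl gene ID for each library, without normalization. The submitters' processing notes name FastQC 0.11.9, Trimmomatic, HISAT2 2.0.4, SAMtools 1.3.1, DESeq2 1.14.1 and the build GRCm38 (mm10). What counted the reads, with which annotation and strand setting, is not given in the sources used here. Thus reads of genes overlapping on opposite strands may be counted for either, and 12 members share exon bases with another gene. No column was left unused.

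IDs were named and placed with GENCODE M21 (GRCm38), which gave a symbol to 34490 of 35275. R 4.3.3 was used with edgeR 4.0.16 and DESeq2 1.42.0. Groups came from the labels and were compared by edgeR's quasi-likelihood test after filterByExpr (minimum count 10, minimum total 15), with TMM normalization and Benjamini-Hochberg adjustment over 15610 genes. Ratios and their exact permutation tests ran over all 252 splits into 5 and 5. Intervals are at 95%, and 2 counts were added as a prior before taking log2 of CPM. P-values set the KO to WT difference against the variation between mice within the groups. No libraries agreed within sampling noise. The tests were checked on simulated data.

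Named genes were all members, the targeted gene, the 2 highest and 2 lowest called genes and the most abundant gene of each list of matrix genes, and up to 3 abundant genes of each marker list. A gene that this rule names is not reported here. *Pdgfra*, *Cldn5* and *Amy2a5* were named after their values were seen, as were the genes overlapping *Nid2* and *Fbn1*. In the ileum list *Osta* and *Slc51a* are 1 gene and were counted once. The members and lists were chosen with earlier results of these data known. Alternatives were RLE normalization, scaling by library size, DESeq2, robust dispersion, testing every gene, a filter at a mean count of 10, each mouse left out, a block by replicate number, the smooth muscle or the ileum score as a covariate, a limit of 1 on the log2 fold change, other offsets of the ratios and another gene length.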

Additional observations from a re-analysis of the deposited data

Results flagged for a closer look

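Among 100 sets of 5 libraries checked for a library far from the rest (gap to the nearest library over the range above 0.71), 4 were over the limit, where about 5% would be by chance. WT replicate 4 stood above the other WT libraries for *Eln*, with 18.6 CPM against 12.6 to 14.1 CPM, and for *Sparc*, with 199 CPM against 138 to 155 CPM. Its log2 ratio of *Eln* to *Fbn1* was -1.86, against -2.26 to -2.19 in the other WT libraries, and was still below every KO library. KO replicate 4, the library with the highest smooth muscle score (9.56), had 63.6 CPM of *Mgp* against 16.0 to 28.3 CPM in the other KO libraries.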

How the results depend on the processing

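*Dcn*, *Lum*, *Postn*, *Fbln1*, *Lama5*, *Nid2* and *Col18a1* kept their call and direction under RLE normalization, scaling by library size only, robust dispersion, DESeq2, testing every gene, a filter at a mean count of 10 and each mouse left out. Under both covariates all 7 lost the call, and with the smooth muscle score all but *Col18a1* kept the direction. With that score *Lum* (0.53), *Postn* (0.70), *Dcn* (0.51) and *Nid2* (-0.50) were nearer to no change than in the main test. *Fbln1* (-1.67) and *Lama5* (-0.65) changed less. With single mice left out, 3 to 8 members were higher and 4 to 8 lower, with 0 to 1 higher and 3 to 5 lower in the basement membrane, 0 to 1 and 1 to 2 in elastic fibres, 2 to 4 and 0 to 1 in fibrils, and 1 to 2 higher among other proteins, and 0 to 6 ratios passed. The higher count was 3 without WT replicate 1, 2, 3 or 5 or KO replicate 3 or 4 and 8 without KO replicate 5. Without a filter 3 were higher, with 0 higher in the basement membrane and 0 in elastic fibres, since *Lamb2* (0.60, adjusted p = 0.0536) and *Eln* (0.69, adjusted p = 0.0573) were lost. *Lama1* (-0.68, edgeR adjusted p = 0.0629) lost its lower call as well. DESeq2 called 2 other proteins higher. With a limit of 1 on the log2 fold change 2 members were higher and 2 lower, 0 and 0 in the basement membrane, 0 higher in elastic fibres and 1 higher in fibrils. With the smooth muscle score 0 members were called by edgeR in any group or direction (3 at an unadjusted p under 0.05), and *Col18a1* (0.00316), *Lama1* (0.10), *Lamb2* (-0.26) and *Eln* (-0.10) reversed. With the ileum score, 1.23 to 2.40 in WT and 7.68 to 8.65 in KO libraries, edgeR called 0 members (3 at an unadjusted p under 0.05) and 0 of all genes (1261 at an unadjusted p under 0.05). *Col14a1* (3.47), *Dcn* (-1.05), *Lum* (-3.97), *Col18a1* (3.80), *Lama1* (2.003), *Lamb2* (-3.08), *Nid2* (1.27), *Eln* (-1.62), *Fbln1* (0.52) and *Postn* (-2.80) then reversed, while *Lama5* (-1.11) kept its direction. The edgeR adjusted p of these genes lay between 0.583 and 0.945, so that none of these signs is established. Both scores separate the groups, so that these values cannot be told apart from genotype. The summed TPM of the members in WT mice was 1314 with merged exons and 1472 with the longest transcript. Offsets of 0.1 and 1 gave 5 and 4 ratios, with *Dcn* to *Lum* at -0.69 (exact permutation test, adjusted p = 0.0476) under 0.1. The alternatives for members below the filter gave no value, since all 35 passed it. The count of calls over the matrix-related lists was 30 higher and 14 lower by DESeq2 and 33 and 9 by library size.

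The replicate numbers did not pair the mice, as the correlations of same-numbered libraries were 0.016, 0.002, -0.091, 0.177 and -0.167, and only replicate 4 correlated best with its own number. With the replicate number as a block, 6 members were higher and 5 lower, 2 of the higher among other proteins, *Lama1* (adjusted p = 0.0554) being lost and *Mgp* (0.80, adjusted p = 0.0204) gained, and 3848 of all genes were called (24.7%) by edgeR.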
